A study of Schizosaccharomyces pombe with 6 samples.

Results

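The expression of 4 genes of the mitochondrion was followed across the 6 arrays of an experiment in fission yeast: cmc1, erv1, hem14 and atg43, the last listed in the deposited files under its systematic name SPAC14C4.01c. They were taken as the probe sets with these names in any of the 3 comparison tables deposited by the authors, which gave 1 probe set for each gene, 4 of the 8960 probe sets tested and of the 76 S. pombe probe sets that the tables name. The probe sets were 1770638_at for cmc1 (SPBC21D10.07), 1777768_at for erv1 (SPAC3G6.08), 1776826_at for hem14 (SPAC1F5.07c) and 1776661_at for atg43. The study compared Schizosaccharomyces pombe carrying an empty vector with cells overexpressing Spc1 or Spc1K49R, each in 2 arrays labelled as biological replicates. The empty vector was matched by fold changes to the group that the deposited tables call wild type. Spc1 is the product of sty1, a MAP kinase at the centre of the stress response of this yeast, and Spc1K49R replaces with arginine a lysine of the ATP-binding site of the kinase. The labels used here give no promoter for the vectors, and no medium or length of induction.

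The 4 genes belong to different steps of one organelle's upkeep. Many small proteins of the space between the mitochondrial membranes are held there by disulfide bonds, which the import receptor Mia40 introduces and the sulfhydryl oxidase Erv1 keeps renewing by passing electrons on to cytochrome c. Cmc1, a small protein with paired cysteines that is a typical client of such a relay, is known from budding yeast as a copper-binding factor in the assembly of cytochrome c oxidase, an enzyme that also carries heme. Hem14, protoporphyrinogen oxidase, catalyses the step of heme synthesis just before iron is inserted. Atg43 is a receptor on the outer mitochondrial membrane that binds Atg8 and brings mitochondria to the autophagy machinery for mitophagy, their removal by the vacuole.

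Values are log2 signals that the authors had normalized and centred, so that the median of the 6 arrays is 0 for each probe set. They show differences between arrays of one gene and give no absolute level, and levels of different genes cannot be compared. This array type also holds probe sets for budding yeast, most of which carry no species label in the files used, so every share of the tested probe sets below counts them too. Each gene was chosen because a deposited table lists it, so its values in that comparison are given as a description with no test. The other comparisons of the same gene share 1 group of arrays with the one that chose it and are not independent of it.

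Problems on 2 arrays limit what can be read, and the values below are given array by array for that reason. On Spc1 replicate 1 the SD over the tested probe sets was 0.819, against 0.115 to 0.312 on the other 5 arrays, and the mean difference between 5' and 3' probe sets of 6 S. pombe control genes was -1.53, against -0.56 to 0.40. This difference is used on such arrays as a measure of how complete the copied RNA was. Empty vector replicate 1 came next on both measures, with an SD of 0.312 and a difference of -0.56. The remaining arrays had SDs of 0.115 to 0.156 and differences of -0.10 to 0.40. On the array labelled Spc1K49R replicate 2, sty1 itself was at -1.37, below the empty-vector values of -1.07 and -1.04, whereas it was at 1.20 on Spc1K49R replicate 1 and at 1.04 and 1.49 with Spc1. The sty1 value of that array thus contradicts its label, and it enters every Spc1K49R mean below.

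On the 2 empty-vector arrays cmc1 read -0.31 and 0.08 on the log2 scale, on the Spc1 arrays -0.56 and -0.08, and on the Spc1K49R arrays 0.17 and 0.42. Both Spc1K49R arrays lay above the other 4 arrays, while the Spc1 and empty-vector arrays overlapped. In the authors' deposited table for mutant C and wild type, which chose this gene, cmc1 stands 1.40-fold higher in the mutant (unadjusted p 0.0442). In the value table the Spc1K49R arrays averaged 0.29 ± 0.18 (SD, n = 2) and the empty-vector arrays -0.12 ± 0.28 (SD, n = 2), which is 0.41 higher with Spc1K49R (SE 0.25). The difference between a Spc1K49R array and an empty-vector array ranged from 0.09 to 0.73 over the 4 possible pairs, and the mean difference was 0.21 without empty vector replicate 1 and 0.61 without empty vector replicate 2. The highest cmc1 value of the 6 was on Spc1K49R replicate 2, the array with low sty1, where 99.5% of all tested probe sets had a lower value than cmc1. On Spc1K49R replicate 1 this share was 93.2%.

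For erv1 the empty-vector arrays read 0.36 and -0.01, the Spc1 arrays -0.41 and -0.31, and the Spc1K49R arrays 0.01 and 0.03. The 2 Spc1 arrays were the lowest, and they differed from each other by less than the empty-vector arrays did. In the authors' deposited table for mutant B and wild type, which chose this gene, erv1 stands 1.54-fold lower in the mutant (unadjusted p 0.0278). The Spc1 arrays averaged -0.36 ± 0.07 (SD, n = 2) and the empty-vector arrays 0.17 ± 0.26 (SD, n = 2), so that Spc1 minus empty vector was -0.54 (SE 0.18). The choice of control array moved it by more than 1.5 times: it was -0.35 without empty vector replicate 1 and -0.72 without empty vector replicate 2. Leaving out Spc1 replicate 1, the array with low 5' values, gave -0.49.

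For hem14 the empty-vector arrays read 0.09 and 0.06, the Spc1 arrays -0.97 and -0.38, and the Spc1K49R arrays -0.06 and 0.14. Both Spc1 arrays lay below the other 4 arrays, and the empty-vector arrays were close together. In the same authors' deposited table, which also chose this gene, hem14 stands 1.62-fold lower (unadjusted p 0.0496), with the largest p of the 23 S. pombe probe sets in that table and so the one nearest to its limit of 0.05. Probe sets just past that limit were not analysed here. The Spc1 arrays averaged -0.68 ± 0.42 (SD, n = 2) and the empty-vector arrays 0.08 ± 0.02 (SD, n = 2), so that Spc1 minus empty vector was -0.75 (SE 0.24). This was -0.45 without Spc1 replicate 1, the array with low 5' values, and -1.05 without Spc1 replicate 2.

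For atg43 the empty-vector arrays read -0.11 and 0.11, the Spc1 arrays -0.75 and -0.33, and the Spc1K49R arrays 0.12 and 0.37. The 3 groups did not overlap, with Spc1 lowest and Spc1K49R highest, but the gap between empty vector replicate 2 and Spc1K49R replicate 1 was only 0.01. In the authors' deposited table for the 2 mutants, which chose this gene, it stands 1.70-fold lower in mutant B than in mutant C (unadjusted p 0.0260). The Spc1K49R arrays averaged 0.25 ± 0.17 (SD, n = 2) and the Spc1 arrays -0.54 ± 0.30 (SD, n = 2), which is 0.79 higher with Spc1K49R (SE 0.21). The difference was 0.58 without Spc1 replicate 1, and 0.46 without that array and Spc1K49R replicate 2 together. As for cmc1, its highest value was on Spc1K49R replicate 2, above 99.3% of the tested probe sets of that array.

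**Figure D1:**
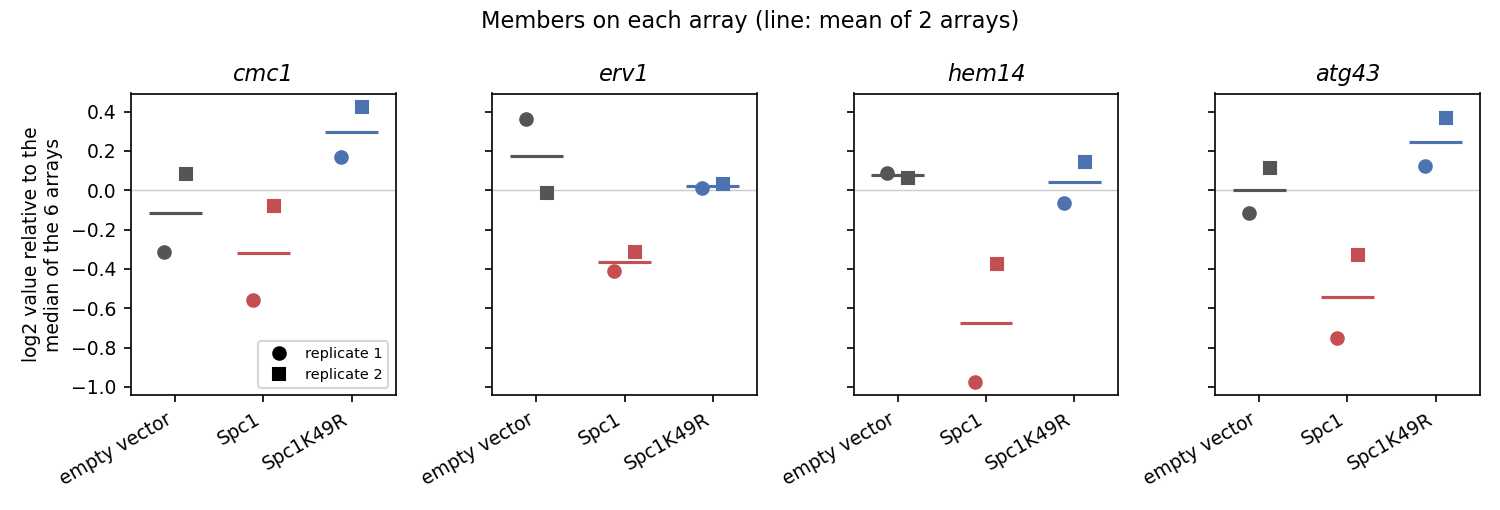
Log2 value of cmc1, erv1, hem14 and atg43 relative to the median of the 6 arrays (vertical axis) in each group (horizontal axis), with circles for replicate 1, squares for replicate 2 and a line at the mean of the 2 arrays. All 4 genes have their lowest value on Spc1 replicate 1, from -0.41 for erv1 to -0.97 for hem14.

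The plot of values by group shows a shared feature of the 4 genes, a lowest value on Spc1 replicate 1, and a difference in where the highest value lies. It was on Spc1K49R replicate 2 for cmc1, hem14 and atg43, and on empty vector replicate 1 for erv1. Low values on Spc1 replicate 1 were common among all probe sets, so each member was also placed among the 8960 tested probe sets of the same array. On Spc1 replicate 1 the members were not extreme, with 14.6% of probe sets below hem14, 19.1% below atg43, 24.8% below cmc1 and 29.5% below erv1. On Spc1 replicate 2, whose values were far less spread, 3 of the 4 stood at the low end. There 86 of 8960 probe sets (0.96%) were below hem14, 140 (1.56%) below atg43 and 167 (1.86%) below erv1, but 2106 (23.5%) below cmc1. Because erv1 and hem14 were chosen for low values with Spc1, and atg43 for a low value with Spc1 relative to Spc1K49R, these positions describe the selected genes and test nothing.

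**Figure D2:**
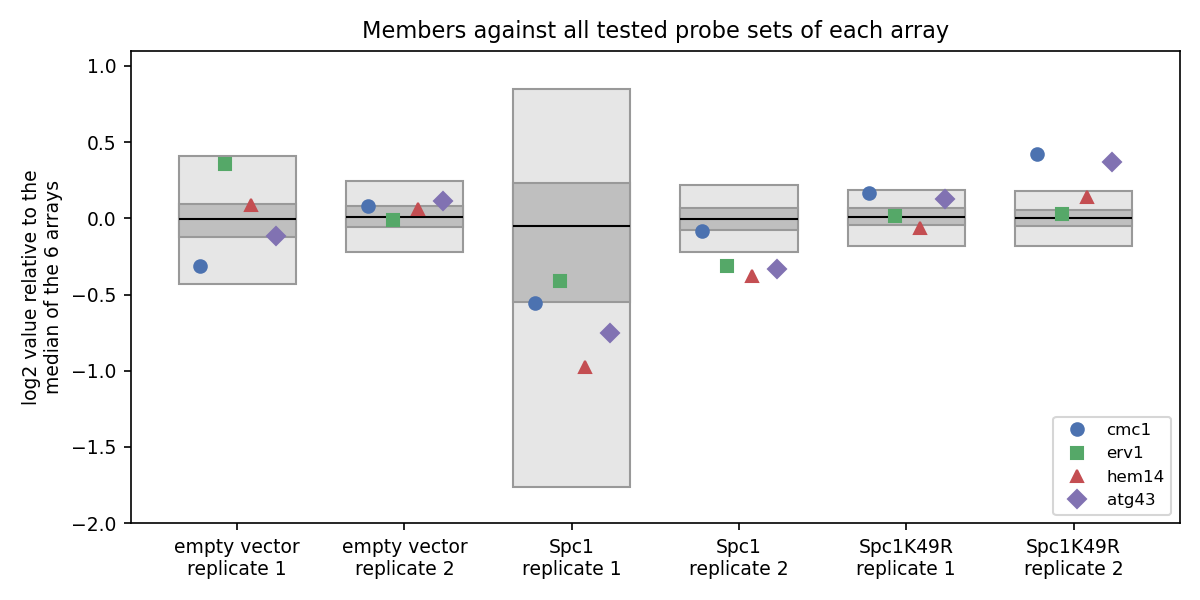
Log2 value relative to the median of the 6 arrays (vertical axis) on each array (horizontal axis), with a light box from the 5th to the 95th percentile of the 8960 tested probe sets, a dark box from the 25th to the 75th, a line at the median and a symbol for each member. On Spc1 replicate 1 all 4 members are inside the wide light box, while on Spc1 replicate 2 erv1, hem14 and atg43 lie below it.

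The order of the group means was Spc1, empty vector, Spc1K49R for cmc1 and atg43, and Spc1, Spc1K49R, empty vector for erv1 and hem14. For erv1 and hem14 the means of Spc1K49R and empty vector were neighbours whose arrays overlapped, and for cmc1 the same held for Spc1 and empty vector. With Spc1 3 of the 4 members had both arrays below both empty-vector arrays, 2 of them by their selection, where 14.4% of all tested probe sets did. With Spc1K49R 2 of the 4 had both arrays above both empty-vector arrays, 1 of them by its selection, against 12% of all tested probe sets. In all 4 members the lower Spc1K49R array exceeded the higher Spc1 array, against 21.6% of all tested probe sets. In the first 2 counts the member not marked as selected was atg43, which was chosen for Spc1 values lower than its Spc1K49R values. For each of the 4 genes the choice had already used the Spc1 or the Spc1K49R arrays, so nothing is read from any of these counts. The median log2 difference of the members was -0.54 for Spc1 minus empty vector, 0.11 for Spc1K49R minus empty vector and 0.66 for Spc1K49R minus Spc1. Over all tested probe sets these medians were -0.05, 0.00 and 0.05.

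The comparisons that did not choose a gene were tested with limma in a model of all 6 arrays, with Benjamini-Hochberg adjustment over the 8960 probe sets. None of the 4 genes passed an adjusted p of 0.05 in such a comparison, and 0% of all tested probe sets did in any of the 3 comparisons. The background at an unadjusted p under 0.05 was 108 probe sets (1.21%) for Spc1 minus empty vector, 8 (0.0893%) for Spc1K49R minus empty vector and 91 (1.02%) for Spc1K49R minus Spc1. That includes sty1, the overexpressed gene, at 2.32 for Spc1 minus empty vector. The 2 arrays in each group limit precision. The 3 groups also share 1 estimate of the spread, so Spc1 replicate 1 enters the SE of Spc1K49R minus empty vector too. With only those 2 groups fitted, the SE of hem14 was 0.11 and not 0.24. Then 92 probe sets had an unadjusted limma p under 0.05, and still 0 passed the adjusted threshold. The labels do not say how the replicate cultures were separated, so p-values measure the spread between these arrays only.

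Against empty vector, atg43 had a log2 difference of -0.54 with Spc1 (SE 0.21, 95% interval -1.09 to 0.00) and an adjusted p of 0.79 with limma. The difference was -0.33 without Spc1 replicate 1 and -0.75 without Spc1 replicate 2. Because atg43 was chosen for low Spc1 values relative to Spc1K49R, this shared sign is a description only. Its Spc1K49R difference from empty vector was 0.25 (SE 0.21, 95% interval -0.30 to 0.79) with a limma adjusted p of 1, and it was 0.12 without Spc1K49R replicate 2. For cmc1 the Spc1 difference from empty vector was -0.20 (SE 0.25, 95% interval -0.84 to 0.43) with a limma adjusted p of 0.805. It was 0.035 without Spc1 replicate 1 and -0.44 without Spc1 replicate 2. Without empty vector replicate 1 it was -0.40, and without empty vector replicate 2 it was -0.007. Its sign and size thus depended on single arrays of both groups. The oxidase gene erv1 differed between Spc1K49R and empty vector by -0.15 (SE 0.18, 95% interval -0.60 to 0.30), and by 0.035 without empty vector replicate 1. The heme gene hem14 differed by -0.04 (SE 0.24, 95% interval -0.64 to 0.57). Both had limma adjusted p-values of 1.

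Spc1K49R was then set against Spc1 for the 3 genes that this comparison did not choose. It is not independent of their choice, which used the Spc1 arrays for erv1 and hem14 and the Spc1K49R arrays for cmc1, and 1 of the Spc1K49R arrays had sty1 at -1.37. The log2 difference was 0.71 for hem14 (SE 0.24, 95% interval 0.11 to 1.32), 0.61 for cmc1 (SE 0.25, 95% interval -0.02 to 1.25) and 0.39 for erv1 (SE 0.18, 95% interval -0.07 to 0.84). With limma all 3 had an adjusted p of 0.717. Over the 4 pairs of arrays the difference ranged from 0.31 to 1.12 for hem14, 0.25 to 0.98 for cmc1 and 0.33 to 0.44 for erv1. Groups that do not overlap were seen in 21.6% of all tested probe sets here, and the selection of these genes favoured them, so the sign over the pairs is a description only. The differences without Spc1 replicate 1 and Spc1K49R replicate 2 together were 0.31 for hem14, 0.25 for cmc1 and 0.33 for erv1. With the 5' minus 3' difference of the control genes as a covariate they were 0.42, 0.24 and 0.46, and 0.49 for atg43. The part of RNA quality in these differences was not tested beyond these values. Of the 4 genes erv1 moved least when the 2 doubted arrays were left out, from 0.39 to 0.33, and hem14 moved most, from 0.71 to 0.31.

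**Figure D3:**
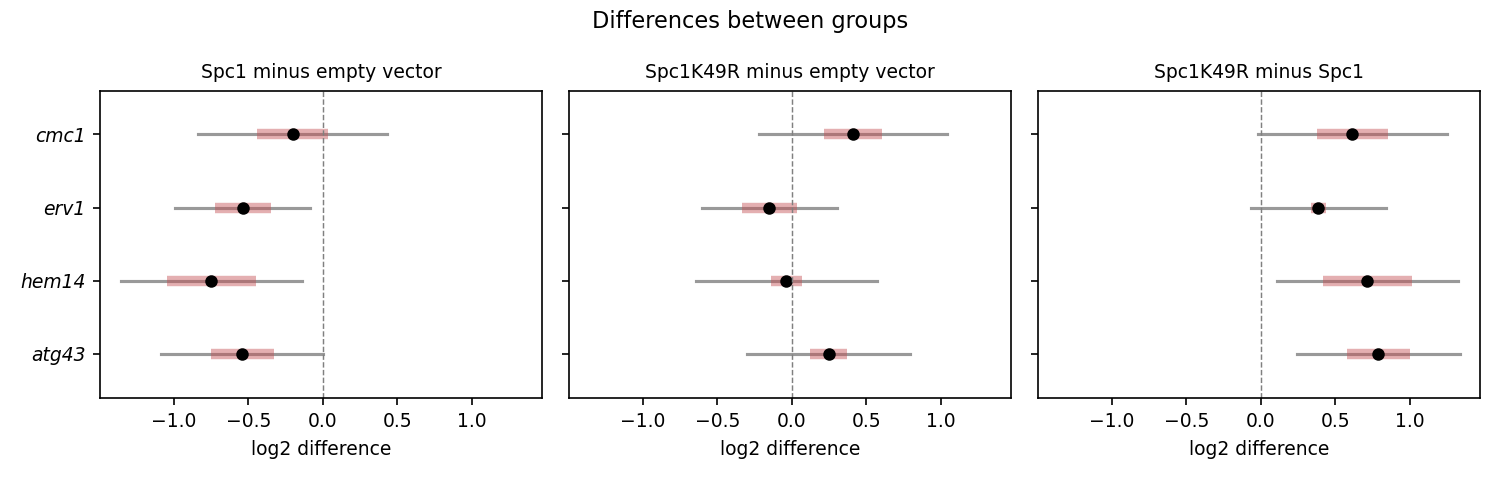
Log2 difference between groups (horizontal axis) for each member (vertical axis) in the 3 comparisons, with a point for the limma estimate from all 6 arrays, a grey line for its 95% interval and a red bar for the range of the estimate when each array is left out in turn. The red bars cross 0 for cmc1 in Spc1 minus empty vector and for erv1 and hem14 in Spc1K49R minus empty vector, and stay above 0 for all 4 genes in Spc1K49R minus Spc1. The interval of a gene in the comparison that chose it describes a selected value and tests nothing. That comparison is Spc1 minus empty vector for erv1 and hem14, Spc1K49R minus empty vector for cmc1, and Spc1K49R minus Spc1 for atg43.

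With single arrays left out, Spc1K49R minus Spc1 ranged from 0.34 to 0.43 for erv1, 0.38 to 0.85 for cmc1, 0.42 to 1.01 for hem14 and 0.58 to 1.001 for atg43, as the plot of differences shows. Because atg43 was chosen by this comparison and the other 3 genes by 1 of its groups, a sign that held with each array left out is no sign of stability. The upper ends came from leaving out Spc1 replicate 2, which leaves Spc1 replicate 1 to stand alone, and the lower ends from leaving out Spc1 replicate 1.

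The patterns of the members were compared over the 6 arrays by Pearson correlation, which is given as a description because the arrays share 3 groups and 1 wide array. The highest values between members were 0.92 for atg43 with hem14, 0.92 for atg43 with cmc1 and 0.83 for erv1 with hem14. The other 3 pairs were lower, at 0.73 for cmc1 with hem14, 0.64 for atg43 with erv1 and 0.29 for cmc1 with erv1. Over the 5 arrays without Spc1 replicate 1 the first 3 became 0.77, 0.82 and 0.78, and the other 3 became 0.29, 0.29 and -0.29. High correlations over 6 arrays were frequent: of the other 8959 tested probe sets, 25.04% correlated at 0.8 or more with hem14, 18.1% with atg43, 12.8% with cmc1 and 4.75% with erv1.

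Among the 71 other S. pombe probe sets named with 1 gene, those most like each member came from varied functions. All 71 are named because a deposited table lists them, so they were selected on these same arrays and high correlations among them test nothing. For atg43 they were rev7, a subunit of a translesion DNA polymerase (r = 0.98), skp1, a subunit of SCF ubiquitin ligases (r = 0.97), and tan1 (r = 0.94). Each of them was listed by the comparison that chose atg43. For cmc1 they were atg43 (r = 0.92), a probe set of the M-factor pheromone gene mfm1 (r = 0.90) and SPBC685.08 (r = 0.89). For erv1 they were SPCC16C4.20c, now named hap2 (r = 0.97), SPAC13G7.12c (eki1), annotated in the deposited tables as a choline kinase (r = 0.96), and aph1, a diadenosine tetraphosphate hydrolase (r = 0.95). For hem14 they were mug124 (r = 0.98), SPCC1450.07c (dao1), annotated as a D-amino acid oxidase (r = 0.96), and the splicing factor gene sap49 (r = 0.95). A high correlation did not mean a like size: on Spc1 replicate 1 sap49 was at -2.09 and mug124 at -1.69, against -0.97 for hem14. By contrast aph1, at -0.45 and -0.42 with Spc1, was within 0.09 log2 units of erv1 as a root mean square over the 6 arrays.

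The wider pathways could be followed only through genes that the deposited tables name. Of 8 genes of heme synthesis the tables name hem14 alone, and of 16 gene names of the disulfide relay and its small twin-cysteine proteins they name erv1 and cmc1. Of 31 genes of autophagy and mitophagy they name atg43, and of 13 genes of cytochrome c oxidase assembly they name none. Mia40, the other heme enzymes and the core autophagy genes were therefore not analysed here, and no count of a pathway can be given beside its member.

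Another 7 S. pombe probe sets in the deposited tables carry a mitochondrial annotation, and all of them were likewise selected on these arrays. With Spc1, pth2, a peptidyl-tRNA hydrolase gene, was at -0.27 and -0.31, against 0.26 and 0.13 with empty vector and -0.02 and 0.02 with Spc1K49R, the same order of groups as erv1. The mitochondrial glutamyl-tRNA amidotransferase subunit gene gta2 was at -0.91 and 0.07 with Spc1, against 0.33 and 0.14 with empty vector and -0.07 and -0.08 with Spc1K49R, so its low value was on Spc1 replicate 1 alone. The nitric oxide dioxygenase gene yhb1, whose protein in yeasts is a flavohemoglobin that carries heme, was at 0.65 and 0.13 with empty vector and at -0.13 and -0.14 with Spc1K49R. Its Spc1 values were 0.21, between the empty-vector values, and -0.126, just above the higher Spc1K49R value of -0.128. For hem14 both Spc1 values lay below those of all other arrays. The stress-responsive gene sro1 was at -0.74 and 0.13 with empty vector, -0.53 and -0.13 with Spc1, and 0.27 and 0.21 with Spc1K49R, the order seen for cmc1. The other 3 were aph1, rev7 and the malic enzyme gene SPAC750.08c, and both of their Spc1 arrays were below both of their Spc1K49R arrays. The same was seen in 21.6% of all tested probe sets. That comparison had itself listed aph1 and rev7, so nothing is read from it.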

How the data were processed

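RNA of 6 S. pombe cultures was measured on Affymetrix yeast arrays after biotin labelling, per the labels and file headers. The authors' deposited values are on a log2 scale, normalized in a way that no source used here states, and centred on the median of each probe set. The base of the logarithm was inferred from their differences, which follow the fold changes in the deposited tables. Those tables hold a fold change and an unadjusted p-value from a moderated test without correction at 0.05, after a filter on raw signal (percentiles 10 to 100), per the file headers. They also hold 6 columns of group means, which were not used. Which label goes with the table names mutant B (Spc1), mutant C (Spc1K49R) and wild type (empty vector) was settled by fold changes alone (r of 0.995 to 0.999 for the tables with mutant B and 0.974 for mutant C against wild type). Names came from these tables, with current symbols from a gene table of ASM294v3. No genome build is stated for the array, and no coordinates are printed.

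After 173 control probe sets were set aside, 8960 of 9133 were tested together, whatever their species, with limma 3.58.1 in R 4.3.3 (lmFit, eBayes, two-sided, a mean per group). The fit was also run on simulated data in which all arrays had the same spread for a given probe set. That simulation does not cover an array as wide as Spc1 replicate 1. An exact permutation test of 2 arrays against 2 was not used. The members and gene lists were chosen with earlier results of these data known. Named genes were all members, sty1, members of 4 pathway lists, and the 3 named S. pombe probe sets most correlated with each member. The 7 probe sets with a mitochondrial annotation, of which 5 are given with values on some or all arrays, were added after values were seen. Alternatives changed the centring, the variance prior, array weights, the replicate block, the arrays and probe sets fitted, the threshold and the 5' minus 3' covariate. Deviations of replicate 1 from its group mean correlated at 0.47, 0.07 and 0.10 between groups, so the numbers were not taken to pair the arrays.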

Additional observations from a re-analysis of the deposited data

How the results depend on the processing

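With limma 0 probe sets passed in each of the 3 comparisons, at the fewest 0 and at the most 2968 for Spc1 minus empty vector and 3234 for Spc1K49R minus Spc1 when arrays were left out singly. Both high counts came from leaving out Spc1 replicate 2, when Spc1 replicate 1, the array with low 5' values, stood alone and its spread was taken to be that of the other groups. Of 180 values of the members under alternatives, 170 kept their sign and stayed short of the threshold, 5 passed it and 5 changed sign. All that passed did so without Spc1 replicate 2, on values that the choice of the genes had used in full or in part, so they test nothing. The sign changes were of cmc1 with Spc1 against empty vector in 3 settings, and erv1 and hem14 with Spc1K49R against empty vector in 1 setting each. Many of the 170 values had no room to change sign, because their differences were identical to the main fit. This held for the settings of variance prior, array weights, replicate block, control probe sets and threshold. It also held with only the compared groups fitted, or with an array outside the comparison left out. The count of 170 is therefore no measure of stability. For cmc1 the Spc1 difference from empty vector ranged from -0.44 to 0.035 with single arrays left out and was positive without Spc1 replicate 1. It was 0.035 without Spc1 replicate 1 and Spc1K49R replicate 2 together, and 0.069 with the 5' minus 3' covariate. The Spc1K49R difference from empty vector ranged from -0.34 to 0.035 for erv1, positive without empty vector replicate 1, and from -0.14 to 0.067 for hem14, positive without Spc1K49R replicate 1. For sty1 it ranged from -0.31 to 2.25, negative without Spc1K49R replicate 1. Nothing in the labels pairs the arrays. The replicate block gave 0 probe sets past the threshold in each comparison and changed no call. With 1 array of each replicate number in every group, the block could not change a difference, only its SE. At an unadjusted p under 0.05 it gave 103 probe sets for Spc1 against empty vector, 3 for the Spc1K49R arrays against the same controls, and 151 for Spc1K49R against Spc1, where the fit without it gave 108, 8 and 91. Because levels are unknown, signal over background could not be judged for any member.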
